A study of Mus musculus with 28 samples.

Results

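Long noncoding RNAs (lncRNAs) were described here through the fragments that small-RNA sequencing of mouse blood plasma had counted. The 200 lncRNA symbols chosen by their mean level were studied, out of 5844 lncRNA symbols in the deposited tables. These 5844 symbols stood for 9000 transcript entries among 80668 RNA entries. The transcripts of 1 symbol were summed, and the 200 symbols with the highest mean RPM (a count scaled by the authors to the depth of its library) over all 28 libraries were kept. The mean RPM therefore chose the members, and their levels and ranks are given as a description without a test.

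A lncRNA is a transcript, often spliced, that is not translated into a protein, and several lncRNAs are the primary transcripts from which microRNAs (miRNAs) or small nucleolar RNAs (snoRNAs) are cut. Others stay in the nucleus, where they scaffold nuclear bodies or silence a chromosome. Small-RNA sequencing reads short molecules, so a lncRNA appears in such a library as a fragment, or as a short RNA whose sequence also lies within the lncRNA transcript. Circulating RNA is released by blood cells and organs, either inside extracellular vesicles (EVs) or bound to proteins and lipoproteins.

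The mice were female wildtype animals of the strain C57BL/6N, aged 2 months (n = 3), 6 months (n = 4), 8 months (n = 3), 12 months (n = 2) or 18 months (n = 2). Plasma freed of platelets and debris was ultracentrifuged, and RNA was isolated from the EV-enriched pellet, called EV here, and from the EV-depleted remainder, labelled plasma. Each of the 14 mice gave 1 library per fraction, and none was treated or genetically altered. The study's protocol states that animals were kept apart, although the titles of the plasma libraries of 2 months, replicates 2 and 3, each name the same 2 animals together, and how these libraries relate to single mice was not tested. An ultracentrifugation pellet can also hold other particles that sediment with EVs, and the tissue of origin of plasma RNA is not given.

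The EV libraries held 4764340 to 52753800 counts and the plasma libraries 928651 to 23905700 counts. Of the 28 libraries, 1 (plasma, 6 months, replicate 1) lay under 2000000 counts. For the plasma libraries of 2 months, replicates 2 and 3, the pairing with the EV libraries rested on the replicate number alone. All lncRNA entries together took a median of 3.53% of the counts in EVs (0.992% to 5.24%) and 3.38% in plasma (1.47% to 5.54%). The 200 members took a median of 2.46% in EVs (0.654% to 3.55%) and 1.91% in plasma (0.752% to 3.34%). Within the lncRNA counts alone the members held 51.0% to 83.9% in EVs and 49.5% to 67.9% in plasma. All members except Gm48538, which had no count in plasma at 6 months, replicate 1, were counted in all 28 libraries. Blood cell and organ miRNAs were present in both fractions: the summed red cell markers (5 of 5 with reads) ranged from 512 to 4268 RPM in EVs and from 687 to 3170 RPM in plasma, and the liver markers (2 of 2) from 6.05 to 129 RPM and from 4.04 to 117 RPM. The platelet and myeloid markers (3 of 3) ranged from 135 to 573 RPM in EVs and from 87.7 to 364 RPM in plasma.

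Both sets of sequences printed here carried the patterns described below. The first was a set of mature miRNAs that lay, letter for letter, within members. They are shown because the level of the member followed that of the miRNAs it holds. The miRNAs are those of RefSeq on GRCm38.p6, the capitals mark the seed (bases 2 to 8), and positions are on the mouse build GRCm38 (mm10). Lncppara holds let-7c-5p (chr15:85706616-85706637) and let-7b-5p (chr15:85707325-85707346), both in exon 7 of 7 on the + strand. The member 6720427I07Rik holds let-7a-5p (chr13:48538239-48538260), let-7f-5p (chr13:48537889-48537910) and let-7d-5p (chr13:48536078-48536099) in exon 2 of 2 on the - strand. These let-7 miRNAs share 1 seed.
let-7c-5p: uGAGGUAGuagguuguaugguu
let-7b-5p: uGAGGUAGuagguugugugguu
let-7a-5p: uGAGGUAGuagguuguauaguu
let-7f-5p: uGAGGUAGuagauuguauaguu
let-7d-5p: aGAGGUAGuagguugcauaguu

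Mir17hg, the host transcript of the miR-17-92 cluster on the + strand of chromosome 14, holds 11 mature miRNAs in exon 2 of 2. Its most abundant ones fell into 3 seed groups, and miR-19b-3p (chr14:115044358-115044380) and miR-19a-3p (chr14:115044048-115044070) share a seed, as do miR-17-5p (chr14:115043684-115043706) and miR-20a-5p (chr14:115044183-115044205). The third group shown is miR-92a-3p (chr14:115044476-115044496).
miR-19b-3p: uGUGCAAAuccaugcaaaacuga
miR-19a-3p: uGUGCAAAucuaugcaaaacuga
miR-17-5p: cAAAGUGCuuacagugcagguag
miR-20a-5p: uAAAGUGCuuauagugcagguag
miR-92a-3p: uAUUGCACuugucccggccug

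Gm27028 holds miR-30c-5p (chr1:23291714-23291736, + strand, exon 1 of 1), E130102H24Rik holds miR-101a-3p (chr4:101346957-101346977, - strand, exon 2 of 2) and 4833445I07Rik holds miR-191-5p (chr9:108568325-108568347, + strand, exon 1 of 1). Their seeds differ from each other and from those above.
miR-30c-5p: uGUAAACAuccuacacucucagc
miR-101a-3p: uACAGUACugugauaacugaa
miR-191-5p: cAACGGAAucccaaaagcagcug

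The second set was a stretch of 15 letters that 3 of the members with the largest excess in plasma had in common. It was found in 3 of the 5772 lncRNA symbols with a transcript in the GENCODE M21 annotation. The stretch was looked for as the longest run that at least 3 of the members with the largest plasma excess share. Its presence in these 3 was thus fixed by the search, and its rarity elsewhere is a description. The stretch is printed in capitals within its exon. The window of 4930579C12Rik lies at chr9:89168922-89168982 (- strand, exon 5 of 12), that of Gm2396 at chr9:88927813-88927873 (- strand, exon 5 of 24) and that of B230312C02Rik at chr2:180371043-180371117 (- strand, exon 7 of 7). The windows of 4930579C12Rik and Gm2396 are alike in nearly all their letters, so these members are close to copies of each other there.
4930579C12Rik: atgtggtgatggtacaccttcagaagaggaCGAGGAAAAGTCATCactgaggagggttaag
Gm2396: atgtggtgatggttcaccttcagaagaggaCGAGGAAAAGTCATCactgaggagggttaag
B230312C02Rik: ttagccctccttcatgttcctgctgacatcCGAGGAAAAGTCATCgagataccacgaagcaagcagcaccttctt

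The levels of the members were steeply graded. The first member, Gm47181, had a mean of 5985 RPM, the tenth, Mir9-3hg, 552 RPM, the fiftieth, Gm47113, 111 RPM and the hundredth, Cdr1os, 58.6 RPM. Only 6 members exceeded 1000 RPM and 58 exceeded 100 RPM. Of the RPM on all lncRNA symbols, the first symbol held 11.04%, the first 3 held 21.0%, the first 10 held 33.3% and all 200 held 63.6%. The choice had no natural break at its lower end: the last members, Gm47854 and Gm44724, had 29.4 and 29.3 RPM, while the next symbols, Gm33936 and Gm32856, had 29.2 and 29.1 RPM and lay just outside.

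Gm47181 (chr9:124344398-124347514, - strand, lincRNA), the member with the highest mean, ranged from 789 to 16660 RPM in EVs (median 6338) and from 875 to 8756 RPM in plasma (median 3004). Its 2 transcript entries had the same value in every library. By the highest transcript alone, Gm42864 ranked 1 and Gm47181 ranked 2. Gm42864 (chr5:112649367-112652112, + strand) ranged from 1108 to 11499 RPM in EVs (median 4685) and from 296 to 2206 RPM in plasma (median 865). Gm29154 (chr9:103888423-103960376, - strand) ranged from 459 to 7975 RPM in EVs (median 1938) and from 154 to 2832 RPM in plasma (median 817). In all 3 the EV median lay above the plasma median and the ranges of the fractions overlapped.

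Next in rank were Gm35281, with EV values of 312 to 3675 RPM (median 1416) and plasma values of 304 to 3813 RPM (median 741), and Gm40663, with 204 to 3341 RPM (median 928) in EVs and 630 to 2068 RPM (median 1412) in plasma. BC002059 ranged from 77.4 to 2035 RPM in EVs (median 451) and from 388 to 2244 RPM in plasma (median 1851), and was higher in plasma in 14 of 14 mice. The other members among the first 12 were 4930543I03Rik, 2210408F21Rik, D6Ertd474e, Mir9-3hg, A930038B10Rik and Gm16551, with means between 498 and 907 RPM. Of these, A930038B10Rik was higher in plasma in 14 of 14 mice and Gm16551 higher in EVs in 14 of 14 mice.

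**Figure D1:**
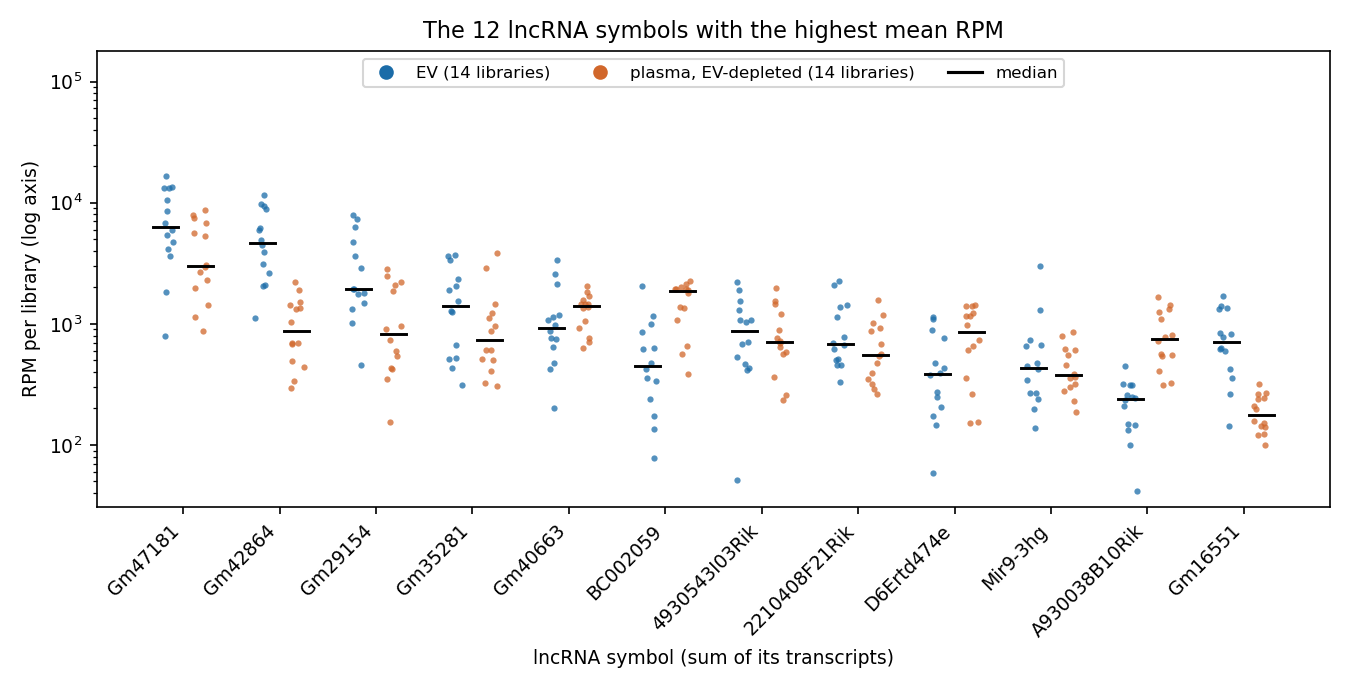
RPM per library (log axis) of the 12 lncRNA symbols with the highest mean RPM, each symbol the sum of its transcripts. Blue points are the 14 EV libraries, orange points the 14 plasma libraries and bars the medians; Gm42864 and Gm16551 sat higher in EVs, and BC002059 and A930038B10Rik higher in plasma, with overlap in each.

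Read numbers rise with transcript length only where fragments come from the whole transcript, so the levels were also divided by the length of the longest transcript. On this scale Gm47181 (398 nt) stood at 15037 RPM per kb, Gm42864 (1436 nt) at 2250, Gm35281 (688 nt) at 2031, Gm29154 (1733 nt) at 1260 and 4930543I03Rik (729 nt) at 1244 RPM per kb. The first 4 symbols by RPM thus held the first 4 places by RPM per kb, and 4930543I03Rik, which had less RPM than Gm40663 and BC002059, came next. These values divide the sum over the transcripts of a symbol by 1 length, and Gm29154 has 58 transcripts. The highest transcript alone gave 7519 RPM per kb for Gm47181, 2250 for Gm42864, 1244 for 4930543I03Rik, 1015 for Gm35281 and 36.4 for Gm29154. The order above therefore rests in part on the summing. The members' longest transcripts had a median of 2195 nt against 923 nt for the other lncRNA symbols, and their GC content, 46.9% against 45.9%, was close. Of the 196 members with a transcript in the annotation, 175 were of the gene type lincRNA and 20 of the type processed_transcript. The remaining 1, D630036H23Rik, was of the type protein_coding there, and 3 of the 196 lay on chromosome X.

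Summing transcripts shaped the list. Of the members, 88 had 1 transcript in the tables and 21 had over 10, and the median was 2 transcripts against 1 for the other lncRNA symbols. In 50 members the sum was over 2 times the highest transcript. Gm29154 had 58 transcripts and its sum was 34.6 times its highest transcript, which had 63.1 RPM and ranked 70. Rian, an imprinted RNA of the Dlk1-Dio3 region, had 68 transcripts and a sum 7.87 times the highest, and ranked 26 by the sum and 174 by the highest transcript. With the highest transcript in place of the sum, 159 of the 200 symbols would still have been chosen. Where several entries share a stretch of sequence, a read from it may have been counted for each of them, and the tables do not show which reads were shared.

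Transcripts of 1 symbol could differ sharply in level. In 67 members some transcripts were at or above 50% of the highest and others at or under 10% of it. In 60 of these the high transcripts had letters in common that every low transcript lacked, and in 8 these letters formed 1 run of at most 300 nt. The examples below were chosen after their values were seen. The lncRNA 2210408F21Rik had 11 transcripts at 72.4 to 76.4 RPM and 3 at 0.563 RPM or less, and the high ones alone held a run of 73 nt in exon 1 of 7 (chr6:31220447-31220519, + strand). Mir9-3hg, a host of miR-9, had 4 transcripts at 135 to 139 RPM and 3 at 3.84 RPM or less, divided by a run of 130 nt in exon 1 of 3 (chr7:79500121-79500250, + strand). Gm36199 had 12 transcripts at 11.6 to 14.8 RPM and 6 at 1.36 RPM or less, divided by a run of 66 nt in exon 1 of 3 (chr17:29465060-29465125, + strand). The runs of all these are shown because they are the letters that set the high transcripts apart from the low ones.
2210408F21Rik: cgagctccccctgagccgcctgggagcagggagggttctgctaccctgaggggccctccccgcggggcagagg
Mir9-3hg: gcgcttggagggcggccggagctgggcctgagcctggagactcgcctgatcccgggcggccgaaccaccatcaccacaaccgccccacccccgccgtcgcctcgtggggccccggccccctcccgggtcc
Gm36199: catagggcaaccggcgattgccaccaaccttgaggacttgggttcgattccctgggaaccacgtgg

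Members that hold a mature miRNA made up a larger share than among the other lncRNAs. A mature miRNA lay within 20 of the 196 annotated members (10.2%) and within 95 of 5576 other lncRNA symbols (1.7%). No test was made because the members were chosen by level and have longer transcripts. MiRNAs annotated on chromosome 18 were left out of this search, so both counts can be too low. Gm29966, a member on that chromosome, was most like miR-122-5p among the RNAs outside the lncRNAs (r = 0.90). Whether it holds that miRNA was not examined. In 6 of the 20 the RPM of the member followed the summed RPM of its miRNAs over the 28 libraries. These 6 were chosen after their values were seen. The 28 points are pairs of fractions from 14 mice and share the library and its depth, so the correlations are descriptions.

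Names with the same letters were counted once (let-7c-2-3p and let-7a-1-3p, which lie at 1 position in each of 2 members). Lncppara had 163 RPM on average and its 4 miRNAs together 140.0 RPM, or 85.8% of it, with r = 0.998 over 28 libraries (r of log2(RPM + 1) here and below). The level of Lncppara ranged from 74.5 to 263 RPM in EVs (median 163) and from 85.1 to 252 RPM in plasma (median 155). For 6720427I07Rik (126 RPM) the 6 miRNAs summed to 105 RPM (83.4%; r = 0.993), and for Mir17hg (273 RPM) the 11 miRNAs summed to 237 RPM (86.9%; r = 0.985). In Lncppara the 2 let-7 5p arms printed above made up nearly all of the sum, with 80.2 RPM for let-7c-5p and 54.9 RPM for let-7b-5p. In Mir17hg, miR-19b-3p had 109 RPM, miR-19a-3p 48.5 RPM, miR-92a-3p 42.6 RPM, miR-17-5p 16.7 RPM and miR-20a-5p 13.2 RPM.

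The sum was a smaller part in the other 3. The 2 miRNAs of Gm27028 (40.3 RPM) summed to 28.3 RPM (70.2%; r = 0.987), the 4 miRNAs of 4833445I07Rik (82.0 RPM) to 54.9 RPM (67.0%; r = 0.891) and the 3 miRNAs of E130102H24Rik (47.5 RPM) to 27.5 RPM (57.8%; r = 0.942). Some arms are made by other genes as well (let-7c-5p and miR-30c-5p, for example), and which gene the reads came from was not tested. AI463229 is not among the 20, but its RPM correlated at r = 0.97 with that of miR-574-3p, of whose 22 letters it holds a run of 16 in sense.

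**Figure D2:**
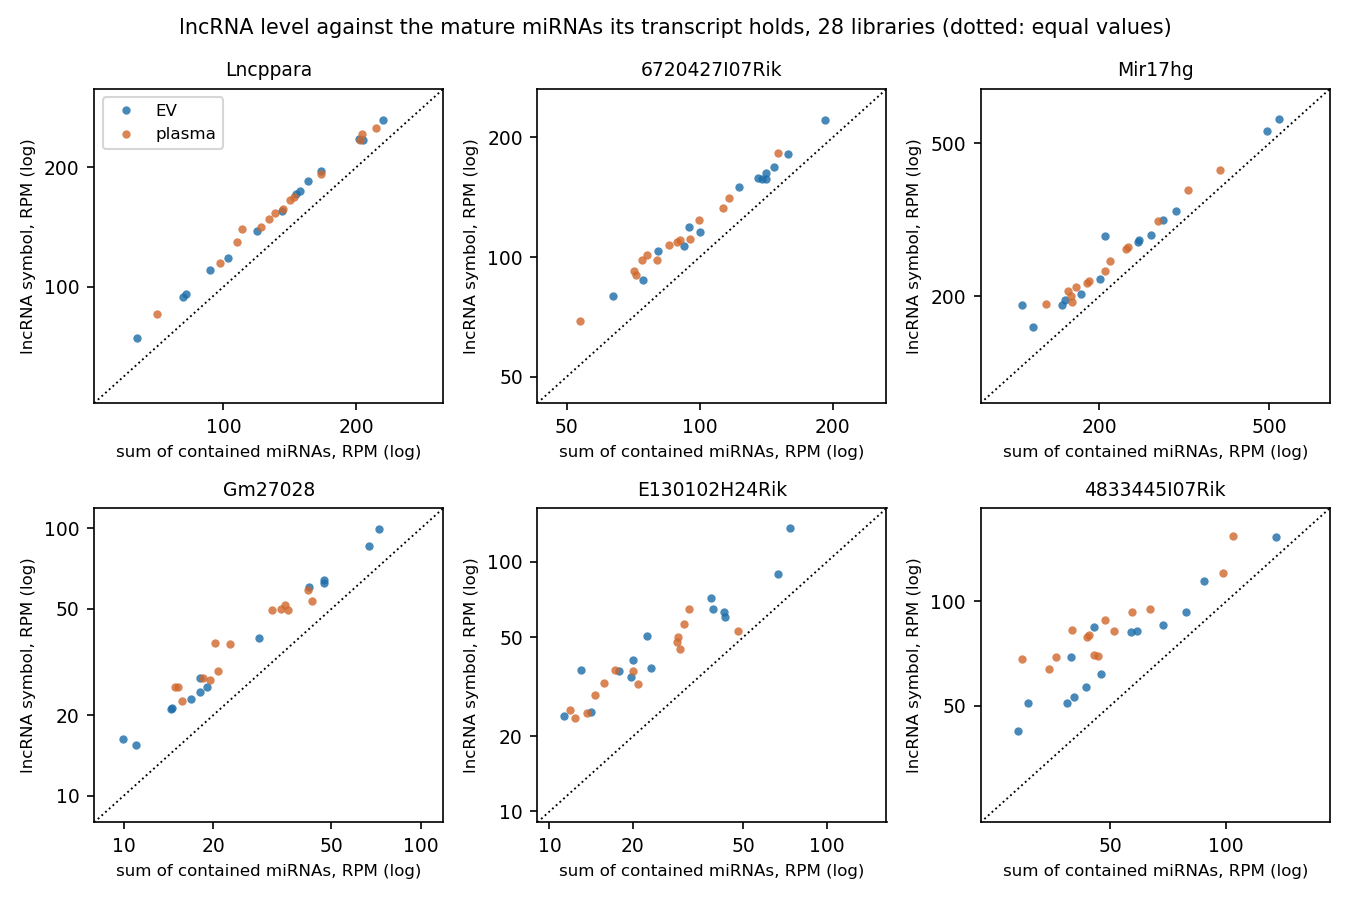
RPM of 6 lncRNA members (vertical, log axis) against the summed RPM of the mature miRNAs their transcripts hold (horizontal, log axis), 1 point per library, blue for EV and orange for plasma. The dotted line marks equal values; the points of Lncppara, 6720427I07Rik and Mir17hg lay just above it in most libraries, and those of Gm27028, E130102H24Rik and 4833445I07Rik further above.

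Other members that hold miRNAs did not share this pattern. Mirg, the host of a large imprinted miRNA cluster, had 44.3 RPM while its 8 matched miRNAs summed to 0.365 RPM (0.824% of it). Meg3, an imprinted lncRNA of the same region, had 58.0 RPM and its 3 miRNAs 0.0764 RPM (0.132%). C130071C03Rik, which holds miR-9, had 207 RPM and its 2 miRNAs 0.0624 RPM (0.0302%). The reverse was seen in 1500004A13Rik, which had 67.7 RPM while miR-3473b, 1 of the sequences it holds, had 337 RPM (r = -0.15).

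The comparison of the fractions asked which lncRNA fragments lay in the EV pellet and which in the EV-depleted plasma of the same mice. By edgeR's quasi-likelihood test on counts scaled by TMM (the trimmed mean of M values), with age as a covariate and a Benjamini-Hochberg adjusted p under 0.05 as the call, 84 of the 200 members differed. The EV libraries were the higher ones for 58 of these and the plasma libraries for 26. Over all 19932 RNAs tested 17.4% were called, 10.2% higher in EVs and 7.13% higher in plasma. Over the 5002 lncRNA symbols tested 14.9% were called, with EVs higher for 7.84% and plasma higher for 7.1%. The median log2 difference (EV minus plasma) was 0.13 over the members, -0.02 over all lncRNA symbols and -0.02 over all RNAs. The choice of the members bears on these counts, because a symbol high in 1 fraction alone could enter through that fraction. A mean of at least that of the last member (29.3 RPM) in both fractions was held by 139 members, of which 51 were called, 41 higher in EVs and 10 in plasma. The other called members reached that mean in the fraction where they were higher alone (17 in EVs, 16 in plasma). In plasma as a bulk sample, fewer releasing cells and less RNA released per cell cannot be told apart.

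The direction of these calls depended on the scaling. With the authors' RPM divisor as the library size, the median of all RNAs moved by -0.44 on the log2 scale. Under it 88 members were called, and 32 of these were higher in EVs and 56 higher in plasma. Over all 19932 RNAs, 4825 were called with this divisor, against 3464 with TMM. Both scalings called 58 members in the same direction, 32 with an EV excess and 26 with a plasma excess. With the mouse as a block, so that both fractions of an animal were paired, 98 members were called (66 higher in EVs, 32 in plasma). Without the 2 mice of uncertain pairing the block called 90 (61 and 29). Over all RNAs the block called 3780 of 19932, and 3155 of 19682 without those 2 mice. Among those called with the block were Gm35281 (1.16; adjusted p = 2.5e-03) and 2210408F21Rik (1.02; adjusted p = 4.5e-04), which were not called without the block (adjusted p = 0.076 and 0.051). Under all 25 other settings, 44 of the 84 called members kept their call, 28 higher in EVs and 16 higher in plasma. On the RPM scale itself, EVs exceeded plasma in 14 of 14 mice for 17 members, and plasma exceeded EVs in 14 of 14 mice for 27 members. These counts include the 2 mice of uncertain pairing, and no share over all RNAs is given for them.

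**Figure D3:**
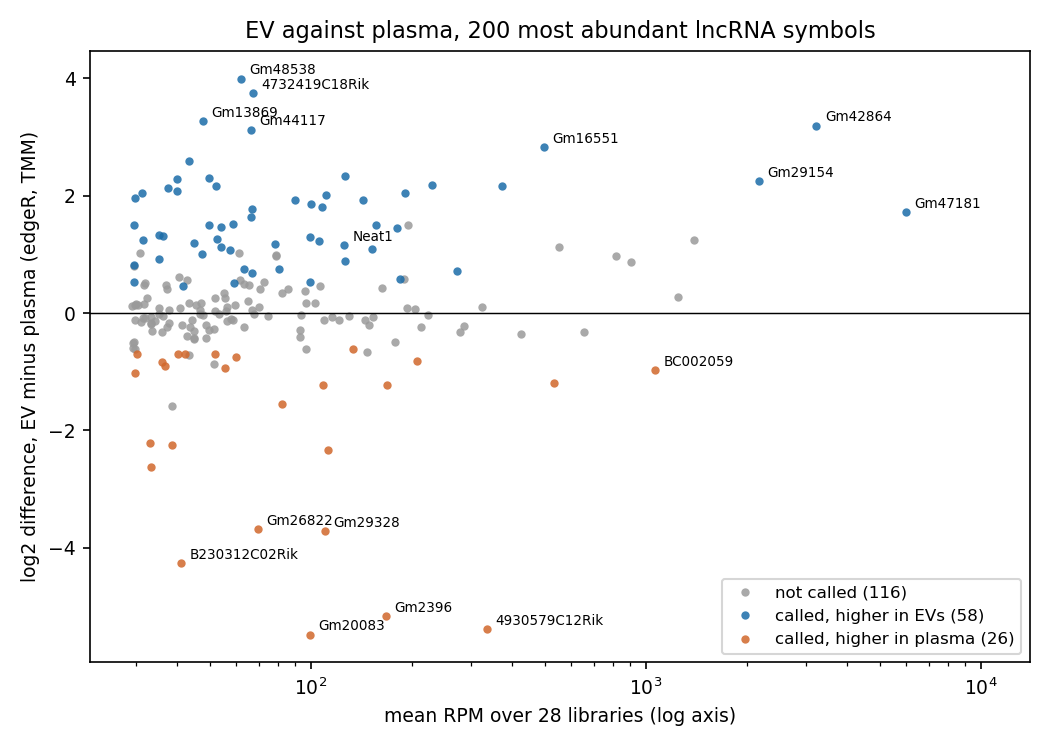
Log2 difference, EV minus plasma, from edgeR with TMM (vertical axis) against the mean RPM over 28 libraries (horizontal, log axis) for the 200 members. Blue points were called higher in EVs (58), orange points higher in plasma (26) and grey points not called (116); the largest differences lay on the plasma side, at -5.48 for Gm20083.

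The RPM ranges of EV and plasma did not overlap for 6 members, all with plasma above. Over all RNAs tested, 0.381% had plasma wholly above EVs and 0.0753% EVs wholly above plasma. The 6 were Gm20083, 4930579C12Rik, Gm2396, B230312C02Rik, Gm29328 and Gm26822. Of these, Gm26822 was named after its values were seen. The EV means of all 6 lay at 11.6 RPM or less, far under the 29.3 RPM of the last member, so that they were among the 200 through their plasma values alone. Their differences below are therefore descriptions of what that choice admitted, and the share above is no measure against which to read them.

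Gm20083 (chr7:73185744-73189446, + strand) had 0.162 to 26.5 RPM in EVs (median 1.72) and 34.3 to 370 RPM in plasma (median 196). The EV value of 26.5 RPM came from 6 months, replicate 3, and the other 13 EV libraries had at most 3.67 RPM. The fitted log2 difference was -5.48 ± 0.48 (SE; adjusted p = 1.1e-09, edgeR). The lowest count of Gm20083 in a library was 1, so its EV values rest on few reads.

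The lncRNA 4930579C12Rik (chr9:89113111-89177887, - strand) had 2.37 to 30.1 RPM in EVs (median 9.26) and 216 to 1029 RPM in plasma (median 720), with a log2 difference of -5.38 ± 0.25 (adjusted p = 6.5e-16). Gm2396 (chr9:88878994-88937342, - strand), its neighbor on chromosome 9, had 1.68 to 15.3 RPM in EVs (median 5.51) and 109 to 514 RPM in plasma (median 359), with a difference of -5.16 ± 0.24 (adjusted p = 6.5e-16). B230312C02Rik (chr2:180370491-180385885, - strand) had 0.838 to 5.36 RPM in EVs (median 2.84) and 28.2 to 139 RPM in plasma (median 77.9), with a difference of -4.26 ± 0.21 (adjusted p = 1.5e-15). On the RPM scale all 3 were higher in plasma in 14 of 14 mice, and their calls were kept under every other setting. Since their plasma values admitted these members, the p-values, mice and settings describe the difference and are no independent support for it.

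These 3 members moved together, and they are the 3 that hold the 15 letters printed above. Over the 14 plasma libraries r lay between 0.969 and 1.00 for their 3 pairs, and over the 14 EV libraries between 0.774 and 0.984. The highest transcript of 4930579C12Rik and Gm2396 had almost the same level: in plasma their ratio was 1.00 to 1.07. The ratio of B230312C02Rik to Gm2396 was 0.190 to 0.290 in plasma. Gm20083, Gm26822 and Gm29328 do not hold the 15 letters. In plasma their r with the 3 was 0.59 to 0.61, 0.56 to 0.57 and 0.62 to 0.75, in this order. In EVs it was 0.23 to 0.45, 0.69 to 0.81 and 0.67 to 0.76. There Gm26822 alone reached into the range of the 3 pairs, and Gm20083 and Gm29328 stayed below it. The shared letters describe the transcripts, and whether the counted reads lay on them was not tested.

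Related sequence was also present in lncRNAs outside the 200. A stretch that differs by T14C, with positions numbered from 1 at the first (5′) of the 15 letters and with the letter of the members first, lies in 4921528I07Rik (rank 552; chr9:114307767-114307827, - strand) and in Gm29825 (rank 585; chr9:114127198-114127258, + strand). Both windows have the same letters, which are shown for comparison with those of Gm2396.
4921528I07Rik and Gm29825: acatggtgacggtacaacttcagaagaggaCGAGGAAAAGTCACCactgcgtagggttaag
The mean of 4921528I07Rik was 7.04 RPM in EVs and 17.7 RPM in plasma, and that of Gm29825 5.65 RPM and 17.8 RPM. In 4833411C07Rik, which differs by G4A, the means were 2.14 RPM and 3.31 RPM.

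Gm29328 (chr7:71264275-71379972, + strand) had 2.37 to 22.8 RPM in EVs (median 10.3) and 36.9 to 807 RPM in plasma (median 140), with a log2 difference of -3.72 ± 0.38 (adjusted p = 1.8e-08). A single library, plasma at 8 months, replicate 3, held 26.1% of its summed RPM. Gm26822 (chr16:10827927-10833507, + strand) had 3.49 to 11.3 RPM in EVs (median 6.87) and 72.6 to 381 RPM in plasma (median 99.6), with a difference of -3.68 ± 0.20 (adjusted p = 2.6e-14). Gm2762 had 12.99 to 45.7 RPM in EVs (median 22.2) and 42.2 to 779 RPM in plasma (median 135), with a difference of -2.34 ± 0.36 (adjusted p = 2.2e-05). Its ranges overlapped slightly, and its highest transcript alone gave -0.54 (adjusted p = 0.34). The EV median of Gm2762 also lay under the 29.3 RPM of the last member, so its plasma values could admit it to the 200. Among the 12 most abundant members, BC002059 differed by -0.97 ± 0.27 (adjusted p = 0.011) and A930038B10Rik by -1.20 ± 0.39 (adjusted p = 0.029). The call of A930038B10Rik was lost without 2-month replicate 2 (adjusted p = 0.051), without 6-month replicate 2 (0.060) and without 6-month replicate 3 (0.052).

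On the EV side the differences were smaller and every member overlapped between fractions. The plasma medians of 4732419C18Rik, Gm13869 and Gm44117 lay under the 29.3 RPM of the last member. Their EV values could thus admit them to the 200, and their differences and p-values are descriptions of what that choice admitted. The lncRNA 4732419C18Rik (chr8:123744631-123754726, - strand) had 28.9 to 275 RPM in EVs (median 68.0) and 7.17 to 36.5 RPM in plasma (median 12.9), with a log2 difference of 3.75 ± 0.47 (adjusted p = 1.0e-06). Gm13869 (chr2:103206209-103210357, - strand) had 7.14 to 194 RPM in EVs (median 68.7) and 1.54 to 27.2 RPM in plasma (median 14.1), with a difference of 3.27 ± 0.53 (adjusted p = 4.0e-05). Both were higher in EVs in 14 of 14 mice.

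Gm42864, the second member by level and given by library range above, differed by 3.20 ± 0.47 (adjusted p = 1.3e-05) and was higher in EVs in 14 of 14 mice. Gm44117 (chr6:90459711-90461468, - strand) had 21.1 to 278 RPM in EVs (median 89.9) and 8.08 to 54.6 RPM in plasma (median 18.3), with a difference of 3.13 ± 0.49 (adjusted p = 2.6e-05) and an EV excess in 13 of 14 mice. Gm16551 (chr9:74847983-74860134, + strand) had 143 to 1707 RPM in EVs (median 706) and 100.2 to 316 RPM in plasma (median 178), with a difference of 2.83 ± 0.40 (adjusted p = 6.3e-06). Gm29154 differed by 2.25 ± 0.50 (adjusted p = 1.7e-03) and Gm47181 by 1.72 ± 0.48 (adjusted p = 0.011). The calls of these members were kept under every setting except that of Gm47181, which limma on log2(RPM + 1) did not call (adjusted p = 0.089).

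**Figure D4:**
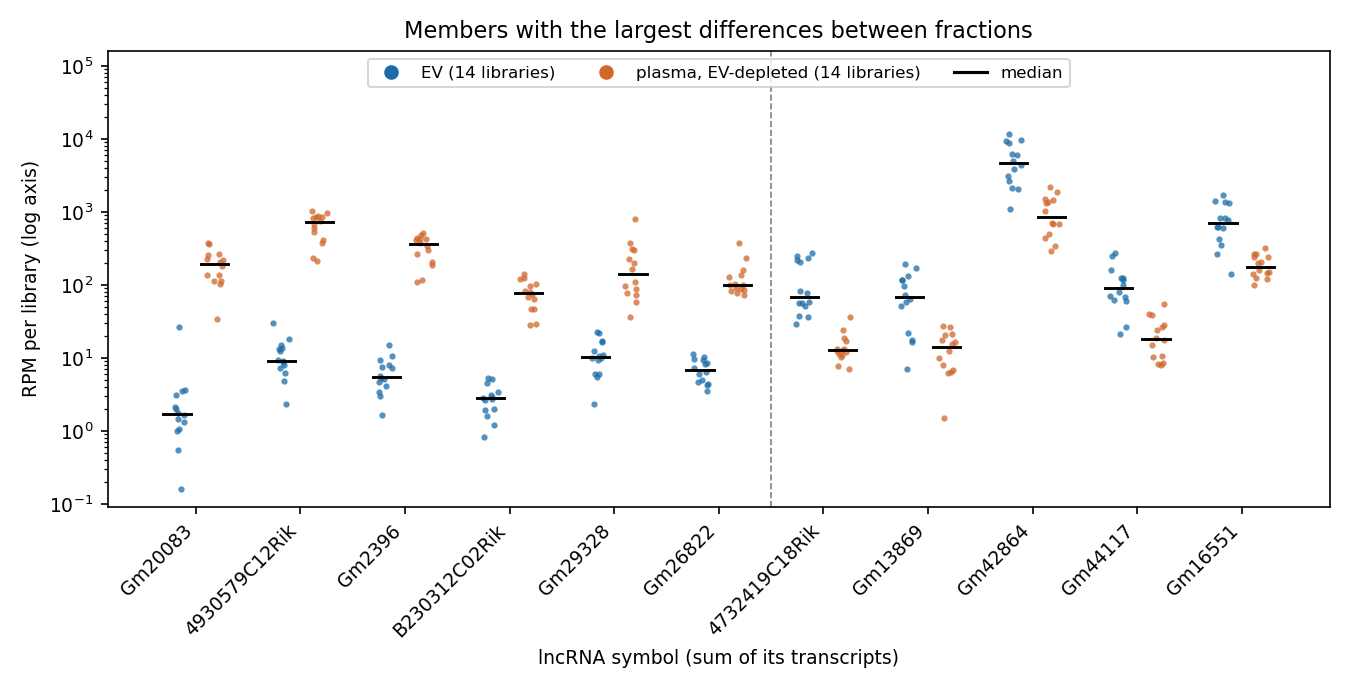
RPM per library (log axis) of the members with the largest differences between fractions; blue points are the 14 EV libraries, orange points the 14 plasma libraries and bars the medians. The 6 symbols left of the dashed line were higher in plasma with no overlap, and the 5 to the right were higher in EVs with overlap.

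Among lncRNAs of known role, 8 of the 36 tested (22.2%) were called between the fractions, close to the shares over all RNAs (17.4%) and all lncRNA symbols (14.9%). Of 9 nuclear lncRNAs listed, 5 were tested and 4 were members, and Neat1 alone was called. Neat1, the scaffold of paraspeckles, had 107 to 275 RPM in EVs (median 137) and 78.8 to 145 RPM in plasma (median 106). The ranges overlapped, Neat1 was higher in EVs in 13 of 14 mice, and the log2 difference was 1.16 ± 0.22 (adjusted p = 3.5e-04). Malat1, an RNA of nuclear speckles, differed by 0.10 ± 0.16 (adjusted p = 0.76), Xist, which silences the inactive X chromosome, by 0.09 ± 0.13 (0.71) and Ftx, a gene of the X inactivation center, by -0.21 ± 0.16 (0.44).

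Of 20 snoRNA hosts listed, 13 were tested, of which 2 rose in EVs and 1 fell, and the members among them were Snhg5 and Snhg12. Snhg12 had 29.1 to 226 RPM in EVs (median 46.0) and 15.9 to 89.2 RPM in plasma (median 33.8). EVs exceeded plasma in 10 of 14 mice, with wide overlap and a log2 difference of 1.26 ± 0.36 (adjusted p = 0.014) that was not called with the RPM divisor as the library size (0.65; adjusted p = 0.10). Snhg5 had 20.9 to 50.6 RPM in EVs (median 38.9) and 28.8 to 73.7 RPM in plasma (median 58.0), with a difference of 0.05 ± 0.19 (adjusted p = 0.93) that turned to -0.53 (adjusted p = 0.030) with the RPM divisor.

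Of 18 miRNA hosts listed, 15 were tested and 3 rose in EVs, and 9 were members. Mir17hg had 166 to 577 RPM in EVs (median 278) and 190 to 426 RPM in plasma (median 226), with overlapping ranges and a log2 difference of 0.72 ± 0.24 (adjusted p = 0.035). This call was lost with the RPM divisor (0.17; adjusted p = 0.54), and without 2-month replicate 2 (adjusted p = 0.072), 6-month replicate 1 (0.052), 12-month replicate 1 (0.068), 18-month replicate 1 (0.059) or 18-month replicate 2 (0.063). The other 8 member hosts did not pass the test. Mir9-3hg had 139 to 2990 RPM in EVs (median 436) and 186 to 860 RPM in plasma (median 377), with a difference of 1.13 ± 0.45 (adjusted p = 0.084; 0.71 and adjusted p = 0.023 with the mouse as a block, a call not made without the 2 mice of uncertain pairing). For Mir100hg, Mir99ahg, Mir124-2hg, Mirg, Dleu2, Meg3 and Rian the differences lay between -0.13 and 0.17. Outside the members, H19 (1.55 ± 0.24; adjusted p = 2.3e-05) and Mir155hg (0.68 ± 0.20; adjusted p = 0.014) were the other hosts called. Of 10 catalytic or scaffold RNAs, 3 were tested and none was a member. Rmrp, the RNA of RNase MRP, was the only one called (2.63 ± 0.48; adjusted p = 2.1e-04).

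Some members owed their rank to 1 library. In 11 members a single library held over 20% of the RPM summed over all 28, against a median of 9.01% for the top library of a member. Gm48538 had 1684 RPM in EVs at 2 months, replicate 1, and at most 3.77 RPM in each of the other 27 libraries, so that this library held 97.2% of its RPM. Its log2 difference of 4.00 ± 1.27 (adjusted p = 0.027) became 0.31 (adjusted p = 0.49) without that mouse and 0.66 (adjusted p = 0.52) with the mouse as a block. Gm48485 had 755 RPM in plasma at 8 months, replicate 2, and at most 10.7 RPM elsewhere. Its difference of -2.21 ± 0.77 (adjusted p = 0.045) turned to 0.97 (adjusted p = 2.3e-03) without that mouse and to 0.57 (adjusted p = 0.44) with the mouse as a block. In 1810008I18Rik, plasma at 12 months, replicate 2, held 603 RPM, or 55.9% of the sum, and the difference of -1.58 ± 0.62 was not called (adjusted p = 0.078).

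The members varied more between EV libraries than between plasma libraries. The median coefficient of variation was 59.3% over 14 EV libraries and 44.3% over 14 plasma libraries, and 146 of 200 members had the larger value in EVs. Across the members, the mean log2 levels of the fractions correlated with r = 0.66, a value across genes that share libraries and are not independent replicates. Over the 28 libraries, 50 members had r over 0.95 with at least 1 other member.

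Many members also followed an RNA of another class. For 87 members the most alike entry outside the lncRNAs had r over 0.95 over 28 libraries, and for 75 of these it was a circular RNA (circRNA). Each r was the highest over all other RNAs with a mean of at least 1 RPM. Of the 80668 RNA entries 16432 were circRNAs, and their share among the RNAs searched was not counted. The same count was not made for RNAs outside the members, so these numbers are not a trait of the members. Gm42864 followed mmu_circ_0007463 (r = 0.998) at 0.451 to 0.583 times its RPM in EVs and 0.506 to 0.793 times in plasma. Gm38811, chosen after its values were seen, followed mmu_circ_0002402 (r = 0.996) at a median ratio of 1.02 in EVs and 1.01 in plasma. Gm2396 and 4930579C12Rik both followed mmu_circ_0006363 (r = 0.99). B230208H11Rik followed tRNA-Leu-TAA-2-1 (r = 0.99) at a median of 2.03 times its RPM in EVs and 1.95 times in plasma. The members and these entries share libraries and depth, and whether the same reads were counted for both was not tested.

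The age comparison asked whether the members rose or fell over the 16 months from 2 to 18 months. In plasma, 0 of 200 members were called by edgeR's quasi-likelihood test of the slope per month (0.01% of all RNAs). The number was 0 by limma and 1 by DESeq2, which called 24 of all 19929 RNAs. At an unadjusted p under 0.05 there were 35 members, 5 rising and 30 falling, where 7.12% of all RNAs passed. That number depended on single mice and on the coding of age: it was 21 (6 rising, 15 falling; 6.09% of all RNAs) without 18-month replicate 1, 22 (4 and 18; 5.56%) without 2-month replicate 3, and 59 (11 and 48; 10% of all RNAs) when 12 and 18 months together were set against 2 months. In EVs, 0 members were called by edgeR (0% of all RNAs), 0 by limma and 0 by DESeq2, and 8 had an unadjusted p under 0.05, 7 rising and 1 falling, where 5.7% of all RNAs passed (5 members without 2-month replicate 1 or 18-month replicate 1). The difference of the slopes between fractions was called for 0 members by edgeR (0% of all RNAs), 0 by limma and 0 by DESeq2, and 7 had an unadjusted p under 0.05, where 3.91% of all RNAs passed (4 without 18-month replicate 1 and 11 without 18-month replicate 2). With the mouse as a block 0 were called, and 31 had an unadjusted p under 0.05, 24 with the higher slope in EVs and 7 in plasma, where 6.16% of all RNAs passed. Without the 2 mice of uncertain pairing the block gave 32 (27 and 5; 6.8% of all RNAs). The median slope of the members, in log2 per month, was -0.017 in plasma and -0.017 in EVs, against 0.0024 and -0.0032 over all RNAs. No gene of the lists above was called in any of these age tests.

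The member with the smallest p in plasma was 1700011B04Rik. At 2 months it had 152, 114 and 127 RPM, at 6 months 114, 123, 137 and 128 RPM, at 8 months 98.2, 121 and 104 RPM, at 12 months 116 and 72.2 RPM, and at 18 months 77.9 and 79.6 RPM. Both 18-month libraries lay below all libraries of 2 to 8 months. The slope was -0.065 ± 0.018 log2 per month (adjusted p = 0.55 by edgeR), and DESeq2 called this member (adjusted p = 4.0e-03).

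B230208H11Rik had 67.9, 61.7 and 57.2 RPM in plasma at 2 months, 95.3, 78.1, 59.3 and 147 RPM at 6 months, 27.5, 88.7 and 38.9 RPM at 8 months, 213 and 243 RPM at 12 months, and 156 and 204 RPM at 18 months. The 4 oldest plasma libraries lay above the 10 younger ones, with a slope of 0.11 ± 0.033 per month (adjusted p = 0.65 by edgeR). Gm11840 had 38.0, 24.3 and 30.3 RPM at 2 months, 11.9, 11.3, 25.7 and 6.58 RPM at 6 months, 37.3, 12.5 and 32.7 RPM at 8 months, 4.65 and 3.98 RPM at 12 months, and 5.53 and 7.82 RPM at 18 months. Its low values came at 12 and 18 months and in 1 library of 6 months, with a slope of -0.16 ± 0.052 (adjusted p = 0.65).

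In EVs the smallest p was that of Gm47777. It had 29.6, 25.5 and 13.6 RPM at 2 months, 10.1, 33.8, 52.8 and 26.0 RPM at 6 months, 17.6, 54.3 and 27.0 RPM at 8 months, 76.3 and 15.6 RPM at 12 months, and 272 and 42.3 RPM at 18 months. A single 18-month library (replicate 1) stood far above the rest. The slope was 0.16 ± 0.033 (adjusted p = 0.40 by edgeR), and 0.072 without that mouse.

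The second, 3110006O06Rik, had 17.2, 19.0 and 14.7 RPM at 2 months, 11.7, 21.0, 34.5 and 28.6 RPM at 6 months, 12.0, 34.9 and 17.1 RPM at 8 months, 35.2 and 13.8 RPM at 12 months, and 79.5 and 22.9 RPM at 18 months. The same 18-month library was the highest, and the slope was 0.087 ± 0.023 (adjusted p = 0.62) and 0.035 without that mouse. Gm48538, whose single high library was of 2 months, had a slope of -0.55 ± 0.15 (adjusted p = 0.62) and -0.0049 without that mouse. These 3 also had the smallest p for the difference of slopes between fractions, EV minus plasma, which was 0.19 for Gm47777, 0.10 for 3110006O06Rik and -0.52 for Gm48538 (adjusted p = 1 for each).

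**Figure D5:**
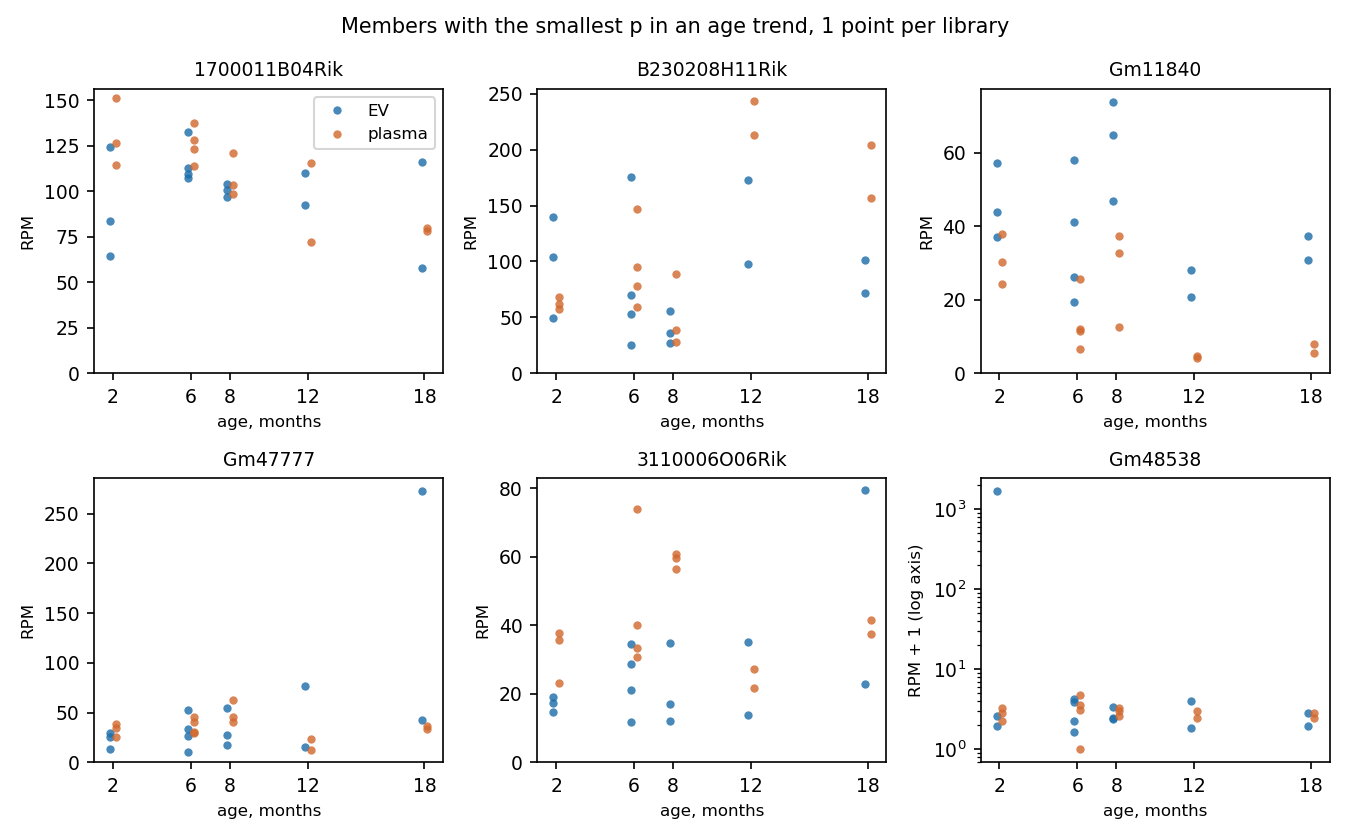
RPM against age in months for the 6 members with the smallest p in an age trend, 1 point per library, blue for EV and orange for plasma; the last panel has a log axis of RPM + 1. In plasma 1700011B04Rik and Gm11840 were lowest at 12 or 18 months and B230208H11Rik was highest at 12 months, and in EVs single libraries stood out for Gm47777, 3110006O06Rik and Gm48538; no slope passed the adjusted threshold.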

How the data were processed

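Small RNAs were sequenced from the EV and plasma fractions of 14 mice (28 libraries), and each library was mapped to its fraction and age by its labels. Of the 2 tables deposited by the authors, the first holds estimated counts per RNA and the second RPM. The deposited RPM was treated as a signal, since each value is the count over 1 divisor per library and the columns differ in their sums. Of the counts, 345 were not whole, none of them on lncRNA entries, and they were rounded. The submitters' processing notes name mm10 and R 4.0.4. For the aligner and counter, the sources used here give nothing specific to this cohort. Total counts ranged from 928651 to 52753800 per library, which sets the counting error of the lower values.

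The members and the gene and marker lists were chosen with earlier results of these data known. The lncRNA transcripts were summed by symbol, other RNAs were kept as they were, and an RNA was tested if over 10% of a fraction's libraries reached 1 RPM. edgeR 4.0.16 (glmQLFit, TMM, R 4.3.3) was fitted over all RNAs and p-values were adjusted by Benjamini-Hochberg over all of them, with a threshold of 0.05. DESeq2 1.42.0, limma 3.58.1 on log2(RPM + 1), other scalings, filters, age codings and left-out mice were alternatives. The script was tested on simulated data. Log2 errors are standard errors. By the study's protocol mice are separate animals, so the age tests within 1 fraction measure the spread between animals. Whether this holds for the plasma libraries whose titles name the same animals together was not tested. The plasma age tests were run with each of these libraries left out in turn, and not with both left out. The main tests between the fractions, and of the difference of slopes, treated both libraries of a mouse as independent. The mouse as a block was an alternative to them.

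The fractions of a mouse were paired by the animal code in the titles, or by replicate number alone for 2-month replicates 2 and 3. The correlation of their deviations from the group means ranged from -0.13 to 0.71 and exceeded 0.1 in 7 of the 10 mice in groups of over 2. With 2 mice a group the deviations mirror each other, so the mice of 12 and of 18 months give 1 value each and do not test the pairing. The block without the 2 mice of uncertain pairing was added after seeing the data. The closest replicate libraries gave a chi-square of 60.2 per degree of freedom over the members, far above counting error, so no library was taken for a copy of another.

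Genes were named by rule: the 12 highest means, the 5 largest called differences per direction with the same sign in at least 12 of 14 mice, the 3 smallest p of each age test, members of the gene lists, the symbols around rank 200, up to 5 members dominated by 1 library, and the 5 highest RPM per kb. Of the 14 lncRNAs listed for overlap with rRNA or satellite repeats, 0 were among the 5844 lncRNA symbols, so they could not be analysed. Sequences and positions came from GENCODE M21 transcripts, of which 8648 of 9000 entries matched by identifier (747 of 890 for the members), and from RefSeq for miRNAs. The correlations are Pearson's r of log2(RPM + 1).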

Additional observations from a re-analysis of the deposited data

Results flagged for a closer look

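In 90 groups of 4 libraries (45 named lncRNAs at 6 months, in each fraction), 7 held a library whose gap to the nearest other exceeded Dixon's 95% critical value, and chance alone gives about 1 in 20 such groups. The groups of 2 and 3 libraries at the other ages were not examined in this way. In plasma, Gm35281 had 2872.1 RPM in replicate 1 against 304 to 608 RPM in the others, and Mir17hg 378 RPM in replicate 1 against 193 to 217 RPM. That replicate is the library with fewer than 2000000 counts. Replicate 2 of plasma had 607 RPM of 4930579C12Rik against 825 to 862 RPM in the others, and 304 RPM of Gm2396 against 413 to 431 RPM. In EVs, Gm20083 had 26.5 RPM in replicate 3 against 0.559 to 3.12 RPM, Neat1 had 107 RPM in replicate 4 against 132 to 137 RPM, and Mirg had 22.6 RPM in replicate 1 against 59.8 to 60.8 RPM.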

How the results depend on the processing

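The count of 84 members called between fractions stayed within 1.5 times its value under every setting tried (71 to 99), and the split by direction did not. With the RPM divisor as the library size 32 members were higher in EVs and 56 in plasma, and with limma on log2(RPM + 1) 33 and 66, against 58 and 26 with TMM. Over all 19932 RNAs, 4825, 5043 and 3464 were called, in this order. The mouse as a block (98 members) changed the calls of Gm35281, 2210408F21Rik, Mir9-3hg, Gm48538 and Gm48485 and of no other among the 45 lncRNAs named by rule. It was not compared call by call for members named otherwise. Without the 2 mice of uncertain pairing the block called 90 members. Leaving out 1 mouse gave 77 to 88 members, 52 to 60 of them higher in EVs and 20 to 28 in plasma. Snhg5 turned to -0.53 (RPM divisor) and -0.52 (limma), and Gm48485 to 0.57 with the replicate block (adjusted p = 0.44; 0.49 and 0.60 without those 2 mice) and to 0.97 without 8-month replicate 2 (-2.50 at the other end of the values without 1 mouse). For age, 0 members were called without any 1 mouse and in most settings. DESeq2 called 1 in plasma, where 24 of all 19929 RNAs were called. Without the filter on low values 17 members were called in plasma, 2 in EVs and 1 for the difference of slopes. Calls rose over all RNAs too: without the filter they were 691 of 62736, 54 of 63856 and 47 of 77279, in this order. With the filter they were 2, 0 and 0. The cause was not tested. Without rRNA in the total, the median EV share was 3.42% for the members (2.46% with it) and 6.24% for all lncRNAs (3.53% with it). Ranking without 1 mouse kept 193 to 198 of the 200 symbols, and other rankings 134 (RPM per kb) to 191. Few mice per age (2 at 12 and at 18 months) and the few reads of members low in 1 fraction (Gm20083 in EVs, for example) limit what could be seen. For single members, 1271 of the values under other settings kept direction and call, 41 gained a call, 33 lost it and 5 turned.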
